A study of Rattus norvegicus with 4 samples.

Results

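A set of 8 genes of arginine metabolism and alternative macrophage activation was examined in the rat macrophage line NR8383, which was established by lavage of a normal rat lung. The genes were Arg1, Nos2, Mrc1, Cd163, Retnla, Chi3l1, Il10 and Tgm2, taken as a fixed list of symbols. They are 8 of the 16581 genes that could be named on the array, and their 11 probes are 11 of 45598. Before RNA was taken, the cells (20 passages by the labels) spent 4 h with pristine single-walled carbon nanotubes, the material NRCWE055, at a dose of 11 cm2 of particle surface for each cm2 of culture area. The 4 exposed cultures make up 1 group, are biological replicates according to the study design, and had 1 array each for their total RNA. The design also names untreated control cells, which were not analysed here, so levels are described and no effect of exposure is measured. Titles set the group, although the source names of replicates 2, 3 and 4 name differently numbered materials. A cell line at 1 passage number stands for neither primary alveolar macrophages nor a tissue.

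Macrophages can use arginine in competing ways. Inducible nitric oxide synthase turns it into nitric oxide and citrulline, a reaction known for killing microbes, whereas arginase cleaves it to urea and ornithine, from which polyamines and proline are made. In mouse macrophages, interferon gamma with microbial products is known to induce Nos2, and interleukins 4 and 13 are known to induce Arg1, Mrc1 and Retnla through STAT6, a state called alternative activation.

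The members divided by detection. Arg1, Mrc1 and Tgm2 were well above background on all 4 arrays, Nos2 was so on 2 arrays, and Cd163, Retnla, Chi3l1 and Il10 on none. That is 3 of 8 members detected on all arrays, where 52.4% of all named genes were. With Nos2 it is 4 of 8 members on at least 1 array, where 58.4% of all named genes were. By probe, 3 of 11 member probes were detected on all arrays, beside 39.1% of all probes. Detection is the scanner software's flag for a spot well above background. In bulk RNA of this kind, fewer expressing cells and less RNA per cell cannot be told apart.

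The background against which these signals are read was low and similar on the 4 arrays. The 308 negative control spots of an array had a median processed signal of 3.64 to 4.16 and a 95th percentile of 4.85 to 5.30. The lowest signal of any probe called detected lay between 15.6 and 15.9. Of 1232 negative control spots over the 4 arrays, 9 (0.731%) were flagged as well above background and 61 (4.95%) as positive and significant, the software's looser flag. The cells' label was checked with markers. Among 11 measured macrophage markers, 9 were detected on every array, such as Cd68, Csf1r, Spi1 and Lyz2, while Marco and Adgre1 were detected on none. Of 13 markers of other cell types, 0 were detected on all arrays, while Col1a1 was detected on 1 array and Dcn on 2. Of all named genes 52.4% were detected on all arrays. Outside these markers, the T cell genes Cd3d and Cd6 were detected on all arrays and Cd5 on 1, so the check covers only the genes listed.

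**Figure D1:**
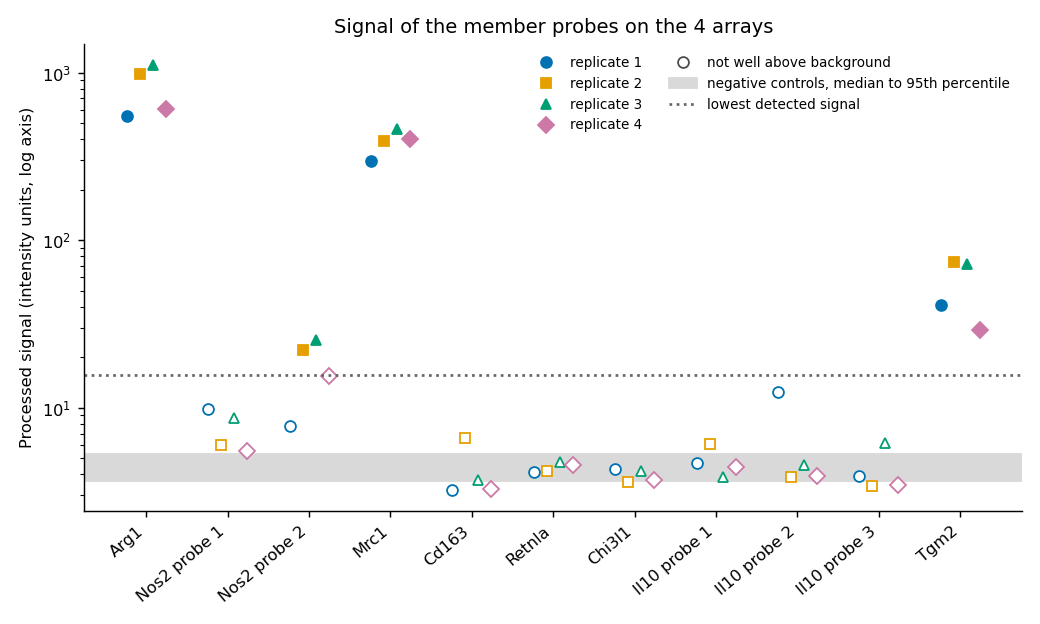
Processed signal (intensity units, log axis) of the 11 member probes on the 4 arrays, with filled symbols for spots well above background and open symbols for the others. The grey band runs from the lowest median to the highest 95th percentile of the negative controls (3.64 to 5.30), and the dotted line marks the lowest detected signal (15.6). Arg1, Mrc1 and Tgm2 lie above that line on every array, Nos2 probe 2 (A_44_P1364598) crosses it, and all spots of Cd163, Retnla, Chi3l1 and Il10 lie below it.

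Arg1 encodes the cytosolic arginase. Its probe gave processed signals of 548, 979, 1106 and 606 on replicates 1 to 4, which is 142 to 269 times the median negative control of the same array. No negative control spot reached it on any array. Relative to each array's 75th percentile, taken over the probes detected on all arrays, its log2 level was -1.68 on replicate 1, -1.43 on replicate 2, -1.37 on replicate 3 and -1.63 on replicate 4. The mean was -1.53 ± 0.15 (SD, n = 4), as are all levels below. Replicates 2 and 3 were the higher pair and replicates 1 and 4 the lower pair, also under each other scaling tried. Arrays 2 and 3 were also the brighter ones, with a 75th percentile signal of 2631 and 2861, beside 1756 and 1873 on arrays 1 and 4. The part of array brightness in this split was not tested. The whole range of Arg1 was 0.31 on the log2 scale, or 1.24-fold, and its SD was close to the software's error estimate for a single spot, which was 0.14 on the log2 scale.

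Nos2, the inducible nitric oxide synthase gene, was close to the limit of detection, and its 2 probes disagreed. Probe A_44_P1364598 had signals of 7.81, 22.0, 25.4 and 15.4 on replicates 1 to 4. It was well above background on replicates 2 and 3, the brighter arrays. On replicate 4 its signal lay just under the lowest detected signal of that array, 15.8, and on replicate 1 it was clearly lower. Probe A_44_P1081944 had signals of 9.83, 6.02, 8.70 and 5.51 and was well above background on no array. Both probes were nevertheless positive and significant on all arrays, 8 of 8 spots, beside 4.95% of negative control spots. Of all named genes, 61.3% were positive and significant on all 4 arrays. Signals of the first probe were 2.03 to 6.12 times the median negative control and those of the second 1.48 to 2.55 times. The software's error estimate was 19.8% to 59.4% of the signal for the first probe and 39.7% to 71.8% for the second. On replicate 1 the first probe was at its lowest and the second at its highest, so no order of the 4 cultures can be read for the gene.

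Both surface receptors on the list bind ligands for uptake, and they parted in detection. Mrc1, the mannose receptor gene, gave signals of 297, 392, 458 and 400 on replicates 1 to 4, or 77.0 to 110 times the median negative control. Its log2 level was -2.56 on replicate 1, -2.75 on replicate 2, -2.64 on replicate 3 and -2.23 on replicate 4, with a mean of -2.55 ± 0.22. Replicate 4 was the highest, and the other 3 lay within 0.18 of one another when it was left out. The range over all 4 was 0.52, or 1.43-fold, and the SD exceeded the error estimate of a spot, 0.15 at most on the log2 scale. Cd163, the scavenger receptor gene for haemoglobin bound to haptoglobin, had signals of 3.23, 6.61, 3.71 and 3.29. Only the spot on replicate 2 was positive and significant. Between 7 and 281 of the 308 negative control spots of an array were at or above it.

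Of the 3 members that encode secreted proteins, Retnla and Chi3l1 were at the level of the negative controls, and Il10 had single spots above it. Retnla encodes resistin-like alpha and had signals of 4.12, 4.16, 4.76 and 4.57, with 29 to 107 negative control spots at or above it. Chi3l1, which encodes a chitinase-like lectin without enzyme activity, had signals of 4.29, 3.58, 4.17 and 3.68, with 81 to 165 negative control spots at or above it. Neither gene had a positive and significant spot on any array, and their error estimates were about as large as the signals. Il10, the gene of the anti-inflammatory cytokine interleukin 10, had 3 probes and was well above background on none of its 12 spots, 5 of which (41.7%) were positive and significant, beside 4.95% of negative control spots. Probe A_44_P1082089 was so on 3 of 4 arrays, with signals of 3.87 to 6.11 over all 4. No Il10 probe was so on all 4 arrays, where 61.3% of all named genes had such a probe. The gene's highest signal was 12.4, from probe A_44_P1111825 on replicate 1, where 4 of 308 negative control spots were at or above it, and the same probe gave 3.86, 4.52 and 3.93 on replicates 2, 3 and 4. The other Il10 probes read 3.94 and 4.66 on replicate 1, so the high reading was not shared by the gene's 3 probes. For these genes and Cd163 the arrays set an upper limit only, since their signals lay under every signal called detected, 15.6 at the lowest.

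Tgm2 encodes tissue transglutaminase, which cross-links proteins and is used as a marker of alternative activation in mouse and human macrophages. Its signals were 41.1, 74.1, 71.8 and 29.0 on replicates 1 to 4, or 7.79 to 20.4 times the median negative control, and no negative control spot reached it. Its log2 level was -5.42 on replicate 1, -5.15 on replicate 2, -5.32 on replicate 3 and -6.01 on replicate 4, with a mean of -5.47 ± 0.37. Replicate 4 was the lowest by the processed signal. The range was 0.86, or 1.82-fold, and the error estimate of a spot was 0.16 to 0.24 on the log2 scale. From median spot signals with normexp correction and an offset of 50, its values were -4.25, -4.38, -4.46 and -4.40, and replicate 4 was then not the lowest.

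**Figure D2:**
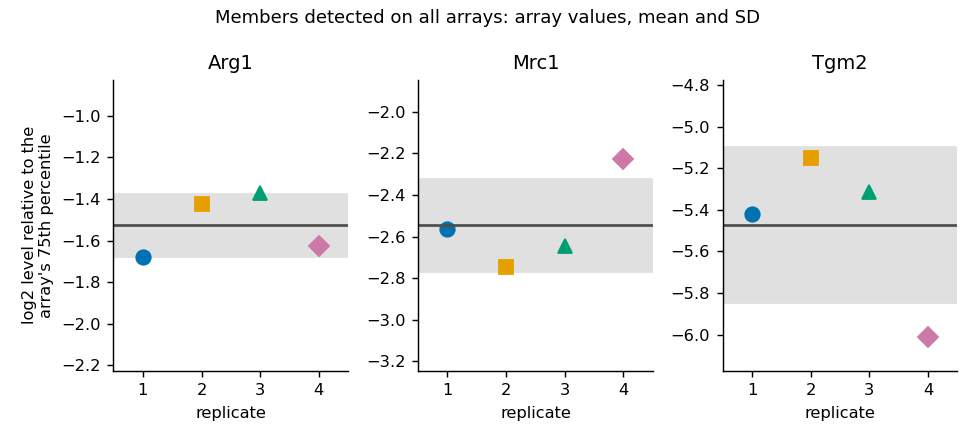
Log2 level relative to the array's 75th percentile (y axis) of the 3 members detected on all arrays, by replicate (x axis), with the mean as a line and 1 SD on either side as a band. All 3 y axes span the same height around the gene's own mean. Replicate 4 is the highest for Mrc1 (-2.23) and the lowest for Tgm2 (-6.01), while Arg1 stays within 0.31.

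Each of the 3 detected members had a larger SD between arrays than the median of detected genes of like level, which are those within 0.5 of its mean. The SD was 0.15 for Arg1, where 1066 genes of like level had a median of 0.0803. It was 0.22 for Mrc1 beside 0.0922 over 1159 genes, and 0.37 for Tgm2 beside 0.199 over 860 genes. With normexp correction the SD of Tgm2 was 0.0895, below the median of 0.0988 over all detected genes in that setting, and replicate 4 was not its extreme. A median over genes of like level was not computed in that setting. The offset of 50 lies within the range of the Tgm2 signals, 29.0 to 74.1, and its part in the lower SD was not tested. An SD above a median is what 50% of genes show, so these values are a description of the error behind each level. By the processed signal, replicate 4 carried much of the spread of Mrc1 and Tgm2, whose SD was 0.0903 and 0.137 without it, whereas that of Arg1 was 0.162. The median SD of the 3 members was 0.225, and 0.137 without replicate 4. None of the 3 spanned over 2-fold between arrays, as 1.11% of all detected genes did.

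**Figure D3:**
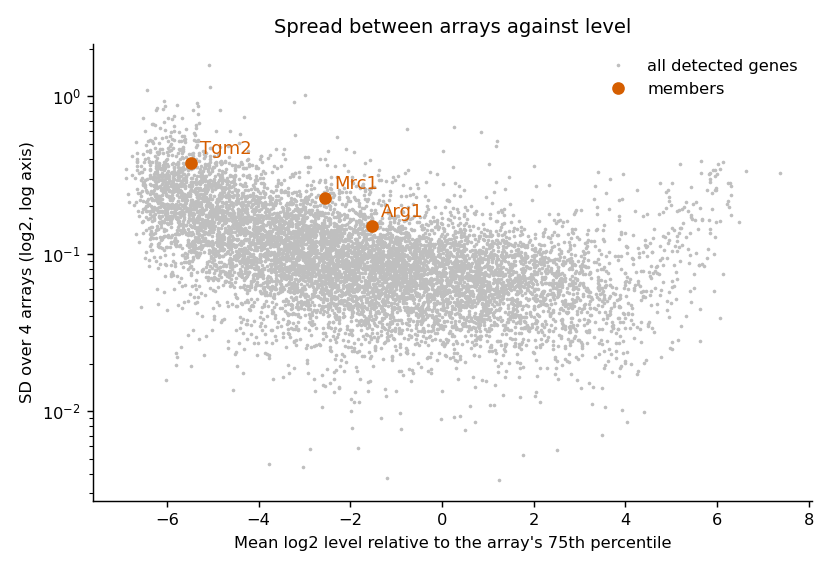
SD over the 4 arrays (log2 units, log axis) against the mean log2 level relative to the array's 75th percentile for all 8685 detected genes (grey), with the 3 detected members marked. The grey cloud is higher at low levels, and Arg1 (0.15), Mrc1 (0.22) and Tgm2 (0.37) lie in its upper part at their levels.

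Around arginase and nitric oxide synthase, genes of arginine transport and the urea cycle were partly detected. On every array 7 of 13 measured genes (53.8%) were well above background, near the 52.4% of all named genes. Slc25a15 was so by 2 of 3 probes. Slc3a2, the shared heavy chain of several amino acid transporters, was at 2.33 ± 0.18. Slc7a2, an inducible carrier of cationic amino acids that macrophages use for arginine, was at -5.78 ± 0.29 by 1 of its 2 probes, the other being well above background on 2 arrays with signals of 12.9 to 19.5 over all 4. No probe was matched to Slc7a1, which encodes the constitutive carrier. Of the enzymes that recycle citrulline to arginine, Asl, the argininosuccinate lyase gene, was at 1.61 ± 0.05. Ass1, the argininosuccinate synthase gene, was well above background on no array, with signals of 3.13 to 3.61. Arg2, the gene of mitochondrial arginase, had signals of 94.3, 4.72, 10.0 and 6.69 on replicates 1 to 4, so its probe was detected on replicate 1 only. Otc, Cps1 and Nags, the mitochondrial urea cycle genes known from liver, were detected on no array.

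Genes that handle ornithine downstream of arginase were detected on every array for 14 of 14 measured genes, beside 52.4% of all named genes. For Smox and Pycr1 not every probe was detected. Odc1, which encodes the ornithine decarboxylase that opens polyamine synthesis, was at 0.82 ± 0.03, its 2 probes lying 0.86 apart. Its degradation is known to be promoted by antizyme and slowed by the antizyme inhibitor. The antizyme gene Oaz1 was at 5.19 ± 0.37 and the antizyme inhibitor gene Azin1 at -3.20 ± 0.13. Amd1, whose product supplies the aminopropyl donor for spermidine and spermine, was at 0.42 ± 0.06, and Sat1, whose product acetylates polyamines for export, at -1.45 ± 0.04. Oat, the ornithine aminotransferase gene on the route to proline, was at 0.62 ± 0.10. Among the 26 pathway genes with a level given, Oaz1 had the widest range, 0.84, being highest on replicate 1 at 5.60 and lowest on replicate 2 at 4.76. Before scaling, its signals were 85084, 71094, 93443 and 78148 on replicates 1 to 4, with replicate 3 the highest. The part of array brightness in this range was not tested.

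Genes that serve nitric oxide synthesis or its induction were detected on all arrays for 13 of 15 members, beside 52.4% of all named genes. Ddah1 was so by 1 of 2 probes. The exceptions were the neuronal and endothelial synthase genes Nos1 and Nos3, which were well above background on no array. Gch1, which encodes the first enzyme in making the cofactor tetrahydrobiopterin, was at 1.33 ± 0.07. On the interferon gamma route, the receptor gene Ifngr1 was at 1.80 ± 0.14 and the transcription factor gene Irf1 at 0.11 ± 0.05.

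The receptors and regulators of the interleukin 4 and 13 response were detected on all arrays for 12 of 15 members, beside 52.4% of all named genes. The receptor genes Il4r and Il13ra1 were at -3.72 ± 0.21 and -4.35 ± 0.09, with 1.11 between the 2 Il13ra1 probes, and the signal transducer gene Stat6 was at -1.83 ± 0.18. The transcription factor genes Klf4, Irf4 and Pparg were at -2.61 ± 0.08, -4.01 ± 0.16 and 3.32 ± 0.12, the pair of Irf4 probes lying 4.93 apart. The cytokine genes Il4 and Il13 themselves and the feedback inhibitor gene Socs1 were detected on no array.

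Other markers of alternative activation were the least detected list around the members, with 6 of 19 on all arrays and 10 on none. Of all named genes 52.4% were detected on all arrays. Clec7a, the beta-glucan receptor gene, was at 1.37 ± 0.07, the chemokine gene Ccl22 at -3.25 ± 0.10, Igf1 at -0.85 ± 0.09 and Tgfb1 at 0.47 ± 0.11. The 2 Clec7a probes lay 1.80 apart, the 3 Ccl22 probes spanned 5.73 and the 5 Igf1 probes 6.70, so a single level stands for these genes only loosely. Trem2 and Cd200r1 were the other detected members. Msr1, Clec10a, Alox15, F13a1, Fn1, Pdcd1lg2, Chia, Chit1, Vegfa and Cd209d were detected on no array, the scavenger receptor gene Msr1 having signals of 4.11 to 9.51. Retnlb, the relative of Retnla, was detected on 1 array by 1 of its 2 probes. Ccl17 was detected on 2 arrays and Ccl24 on 1.

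The receptor and signalling genes of interleukin 10 were detected on all arrays for 8 of 10 members, beside 52.4% of all named genes. The cytokine's own gene was detected on none. Bcl3 was detected on all arrays by 1 of 2 probes. The receptor chain genes Il10ra and Il10rb were at -6.27 ± 0.25 and -0.57 ± 0.04, Stat3 at 0.40 ± 0.23 and its target Socs3 at -2.88 ± 0.05, the mean of a pair of probes 3.26 apart. Maf, whose product is known to drive Il10 transcription, was well above background on no array, with signals of 3.09 to 10.7 over its 2 probes. Among relatives of the members by sequence family, 7 of 9 measured genes were detected on every array, beside 52.4% of all named genes. These were the transglutaminase genes Tgm1, Tgm3 and Tgm4, the chitinase-domain genes Ctbs and Chid1, Mrc2, the relative of Mrc1, and Cd6, a relative of Cd163. For Tgm4 and Cd6 this held for 1 of 2 probes each. The relatives have probes of their own, and cross-hybridization between family members was not tested.

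**Figure D4:**
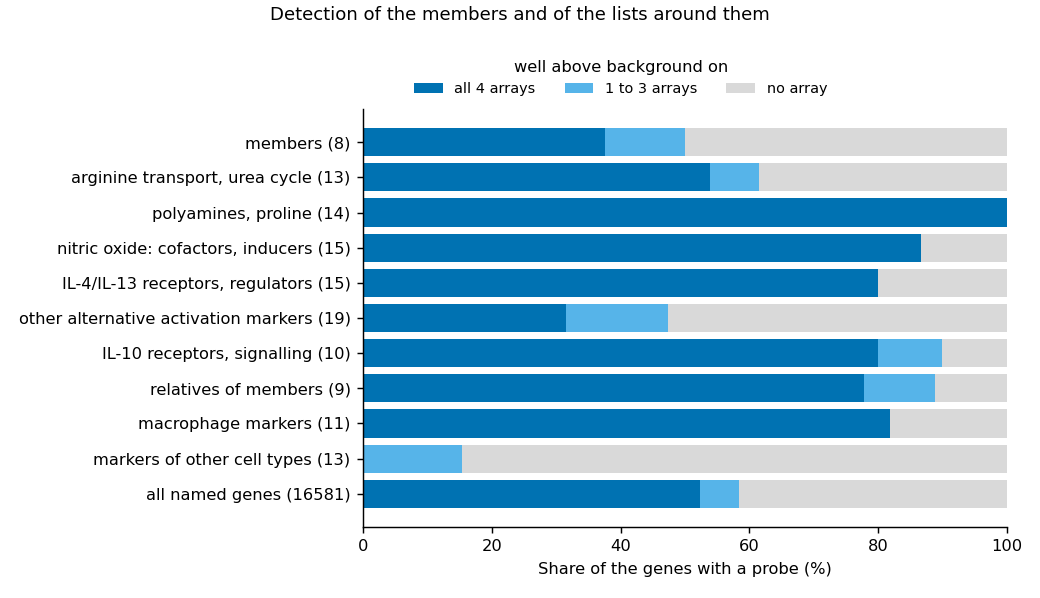
Share (x axis, percent) of the genes with a probe that were well above background on all 4 arrays, on 1 to 3 arrays or on none, for the members, the lists around them, both marker lists and all named genes, with the number of genes with a probe in brackets. The members stand at 3 of 8 and other alternative activation markers at 6 of 19, while polyamine and proline genes stand at 14 of 14 and all named genes at 52.4%.

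Over the 7 pathway lists together, 67 of 95 measured genes (70.5%) were well above background on every array, beside 52.4% of all named genes. The median SD of the 67 was 0.0871, beside 0.0926 over all detected genes. None of the 67 spanned over 2-fold between arrays, beside 1.11% of all detected genes. These shares describe the lists, which were chosen for their link to the members, and the lists were not tested against other genes.

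**Figure D5:**
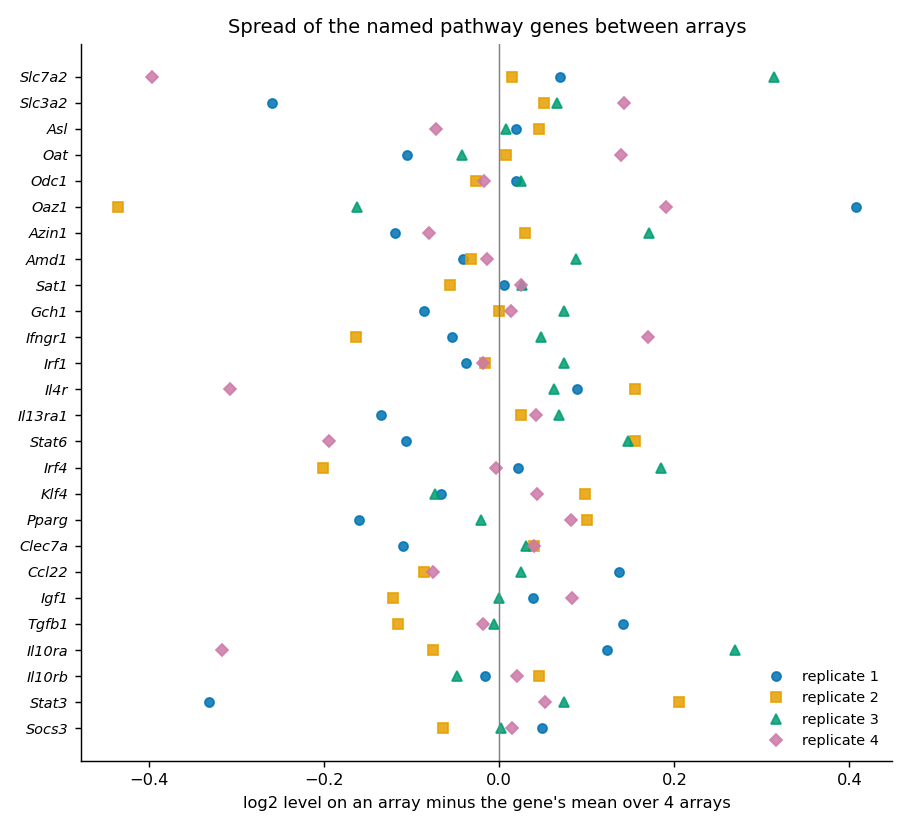
Deviation of each array from the gene's mean log2 level (x axis) for 26 named pathway genes detected on all arrays (y axis), with a symbol per replicate. Most points lie within 0.2 of 0, and the widest spread is that of Oaz1, from 5.60 on replicate 1 to 4.76 on replicate 2.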

How the data were processed

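Total RNA of 4 exposed cultures was labelled with Cy3 and hybridized to 1-colour Agilent arrays. Each deposited file lists the spots of 1 array as read by Agilent Feature Extraction 11.0.1.1, a version given in the headers and in the submitters' processing notes. Its processed signal is an intensity; per the file headers, background had been subtracted and spatial trends removed within the array, with no normalization across arrays. Also used were the deposited error estimate of that signal, the median intensities of spot and local background, and the 0 or 1 flags. All arrays came from 1 slide and 1 scan, per the file headers, so batches could not be compared.

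After removal of control spots, 58717 spots of 45598 probes remained, and spots with an outlier flag (427 to 714 per array) were not used. No member spot was an outlier or saturated, and each member probe was printed 1 time per array. Log2 signals were averaged over a probe's spots. Since 40.8% to 43.7% of probes were detected per array, each array was scaled by the 75th percentile over the 17807 probes that all arrays detected. RefSeq accessions, stripped of their version, were looked up in the GRCr8 gene table, and 21109 probes (46.3%) gained a gene. The array design used another build, so no coordinates are given. Probe and protein sequences were not used here. Gene levels are means over detected probes and are not compared between genes, whose probes differ.

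The members and lists were chosen with earlier results of these data known. Values are given by a fixed rule for the 8 members and 32 listed pathway genes whatever they were, of which 27 pathway genes were detected on all arrays and 1 of those is not reported here. Other list members are named by detection. Genes of like pattern were not sought, since replicates of 1 group have no pattern across conditions. With 1 group there was no contrast to test, so no p-value is given, and the number of arrays, 4, limits the precision. The level and spread computations were tested on simulated data. Alternatives were other background correction, scaling, detection flags, probe choice and outlier handling, and leaving out replicates. R 4.3.3 with limma 3.58.1, and Python 3.11.15 with matplotlib 3.10.9, were used. Cd209 and Chil3 were read through synonyms as Cd209d and Chi3l3.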

Additional observations from a re-analysis of the deposited data

Results flagged for a closer look

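For 43 series, 11 of member probes and 32 of pathway genes or probes, the gap between the most extreme array and its nearest neighbour was divided by the range of the 4 arrays (Dixon's ratio, 95% level). Of these, 2 passed, where chance alone gives about 2.15 (about 1 in 20). Nos2 probe A_44_P1364598 was at -7.81 on replicate 1, below -6.93 to -6.81 on the other arrays, with a ratio of 0.884. On replicate 1 its spot was not well above background, and its error estimate was 59.4% of the signal. Clec7a was at 1.26 on replicate 1, below 1.40 to 1.41 on the other arrays, with a ratio of 0.937. This ratio was taken on the mean of 2 probes. They read 2.18, 2.33, 2.25 and 2.33, and 0.34, 0.50, 0.56 and 0.50, on replicates 1 to 4. By each probe alone, replicates 2, 3 and 4 lay further apart than by the mean.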

How the results depend on the processing

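The count of members detected on all arrays was 3 under the main flag, with detection on at least 3 arrays, with outlier spots kept and without each replicate in turn, and 4 with the looser flag, which added Nos2. By probe the count was 3 in those settings and 5 with the looser flag, both added probes being those of Nos2. The share of all probes that pass the looser flag is not given here, so the rise by probe has no comparison. Pathway genes detected on all arrays numbered 67 to 68 without single replicates and 74 with the looser flag, where 61.3% of all named genes passed. Member levels moved by more than their SD in 4 settings, which changed the reference point or the signal. With normexp correction Arg1, Mrc1 and Tgm2 were at -1.34, -2.29 and -4.37, with the 75th percentile of all probes at 2.08, 1.06 and -1.87, with the median of detected probes at 0.90, -0.12 and -3.05, and with the looser flag, whose reference set holds more dim probes, at -0.75, -1.77 and -4.69. With quantile normalization they were at -1.53, -2.55 and -5.47, within their SD of the main values. Relaxing detection to 3 arrays, picking each gene's brightest probe or dropping the filter on dim probes could not test these levels. Arg1, Mrc1 and Tgm2 have 1 probe each, detected on all 4 arrays, so their levels were identical to the main ones. No member spot was an outlier, so keeping outlier spots could act on these levels only through the array scaling. They then stayed within their SD. Of the 27 pathway gene levels, 27 moved by more than their SD with each of the 75th percentile of all probes and the median of detected probes, 26 with the looser flag, 24 with normexp correction, 14 without replicate 1, 8 with the brightest probe, 2 without replicate 4 and 1, Slc7a2, with no filter on dim probes, while quantile normalization moved none. The brightest probe put Socs3 at -1.25, Irf4 at -1.55, Ccl22 at 0.54, Igf1 at 2.77 and Clec7a at 2.27. Leaving out single replicates gave -1.57 to -1.40 for Arg1, -2.61 to -2.46 for Mrc1 and -5.58 to -5.25 for Tgm2. It also changed the reference point, which was then taken over the probes detected on the remaining arrays. Without replicate 1, Odc1 was at 0.89, above its main values of 0.79 to 0.85 on replicates 2, 3 and 4. Moves without a replicate thus mix the loss of the array with the changed reference, whose part was not tested. The median SD of these 3 genes ranged from 0.137 to 0.273 without single replicates, the lowest being without replicate 4, and was 0.152 with normexp correction. There the SD of Tgm2 was 0.0895 beside 0.375, and the cause was not tested. No paired analysis was possible because all samples belong to 1 group. Signal over background limits what can be said of Cd163, Retnla, Chi3l1 and Il10.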
